A study of Mus musculus with 6 samples.

Results

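The 41 genes described here drive the cell division cycle and the copying of DNA. They were taken from a fixed list of gene symbols, chosen with earlier results of these data known. All 41 were present among the 35673 symbols of the deposited count table. By their known roles, 16 act in S phase and replication, 23 in mitosis and 2 (Ccnd1 and Ccnd2, the D-type cyclins) in G1. Ccna2 acts both in S phase and at mitotic entry and is counted with the mitotic genes.

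RNA of mouse cornea was sequenced in 6 libraries, 3 titled Control and 3 titled Cationorm, from male C57BL/6J mice aged 6 to 8 weeks. In the labels' protocol, contact lens dry eye is induced with 0.1% benzalkonium chloride, a preservative, together with lens wear for 6 h a day, and drops of 5 µL then follow for 14 days. Cationorm is a cationic oil-in-water emulsion given as one of those drops. All 6 libraries carry the same dry-eye condition tag and the treatment tag wild-type, and whether the Control mice were untreated or had the induced dry eye is not stated. Library totals ran from 32486043 to 39193311 counts. The labels name no separate animals for the replicates, and the spread behind each p-value is that between libraries, part of which may be technical.

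The cornea renews its surface from dividing cells in the basal layer of the epithelium and at the limbus, the rim where the stem cells lie. D-type cyclins start the cycle in G1, E2F factors then switch on the replication genes, and the MCM helicase is loaded and opens the DNA in S phase. Cyclin B with Cdk1 opens mitosis, kinases and kinesins build and move the spindle, and the anaphase-promoting complex with Cdc20 ends it. Transcripts of replication genes peak around the start of S phase and those of mitotic genes in G2 and M, so their abundance in bulk tissue follows how many cells are in those phases. In bulk RNA, fewer cells of a type and less RNA per cell cannot be told apart. The corneal label was checked against 10 corneal epithelium markers, all of them detected in every library. Their summed level was 53135 to 57719 CPM (counts scaled to library size with TMM factors) in Control and 54737 to 59534 CPM in Cationorm.

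The 2 classes are known to be switched on through different promoter elements, and the promoters of 2 genes of each class are shown for that reason. They are the genes with the smallest p in the comparison of the groups among those with a RefSeq entry, on mouse build GRCm38.p6, which is older than the GRCm39 that the submitters' processing notes name. Each run is the 250 bases before the annotated start, written 5′ to 3′ on the gene's strand. Capitals mark the matches to CCAAT (the box bound by NF-Y), to TTTGAA or TTCGAA (the cell cycle homology region, CHR) and to the E2F site (TTT, then 2 bases that are each G or C, then CGC), on either strand.
Mcm6, chr1:128359706-128359955, minus strand: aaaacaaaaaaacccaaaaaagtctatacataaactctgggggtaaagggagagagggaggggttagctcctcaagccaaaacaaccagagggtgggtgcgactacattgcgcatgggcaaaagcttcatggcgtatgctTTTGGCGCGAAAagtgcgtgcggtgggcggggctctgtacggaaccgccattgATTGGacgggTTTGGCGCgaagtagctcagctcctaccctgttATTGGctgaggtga
Mcm3, chr1:20820313-20820562, minus strand: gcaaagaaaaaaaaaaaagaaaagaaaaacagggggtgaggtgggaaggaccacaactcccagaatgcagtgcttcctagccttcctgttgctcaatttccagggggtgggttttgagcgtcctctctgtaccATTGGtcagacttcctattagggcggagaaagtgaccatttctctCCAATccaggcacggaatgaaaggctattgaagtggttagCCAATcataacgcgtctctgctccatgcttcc
Mki67, chr7:135716380-135716629, minus strand: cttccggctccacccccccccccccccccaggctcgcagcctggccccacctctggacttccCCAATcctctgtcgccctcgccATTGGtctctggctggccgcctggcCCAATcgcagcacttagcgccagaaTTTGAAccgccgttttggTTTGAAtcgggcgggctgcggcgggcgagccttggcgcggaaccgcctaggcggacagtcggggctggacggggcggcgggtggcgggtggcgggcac
Plk1, chr7:122159185-122159434, plus strand: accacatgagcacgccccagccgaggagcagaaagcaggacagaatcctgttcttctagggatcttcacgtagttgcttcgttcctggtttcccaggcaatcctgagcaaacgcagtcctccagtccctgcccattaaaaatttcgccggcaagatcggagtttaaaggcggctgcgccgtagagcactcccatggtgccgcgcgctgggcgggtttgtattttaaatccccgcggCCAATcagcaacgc

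The promoter of Mcm6 held 3 E2F matches in these bases, 2 of them overlapping on opposite strands, and 2 CCAAT boxes. Mcm3 held 3 CCAAT boxes there, and its 2 E2F matches lay within the 50 bases after the start. Mki67 held 3 CCAAT boxes followed by 2 CHR matches, 110 and 92 bases before the start. Plk1 held 1 CCAAT box, 9 bases before the start, and its CHR match lay after the start.

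Over the whole window of 300 bases, the same search gave different shares in the 2 classes. The table had entries for 13 of the 16 S phase genes and 19 of the 23 mitotic genes, and a gene with 2 windows was counted once. An E2F match was found for 6 of 13 S phase genes (46.2%) and for 1 of 19 mitotic genes (5.26%), against 2.26% of all 32851 promoters of the table. A CHR match was found for 2 of 13 S phase genes (15.4%) and 15 of 19 mitotic genes (78.9%), against 19.2% of all promoters. With the upstream bases alone the CHR share of the mitotic genes was 47.4% (9 of 19) and the E2F share of the S phase genes 30.8% (4 of 13), against 17.1% and 1.86% of all promoters. All 15 of those mitotic genes also held a CCAAT box, which was present in 69.2% of the S phase genes, 89.5% of the mitotic genes and 37.4% of all promoters. A match is a run of letters and no measured binding site.

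**Figure D1:**
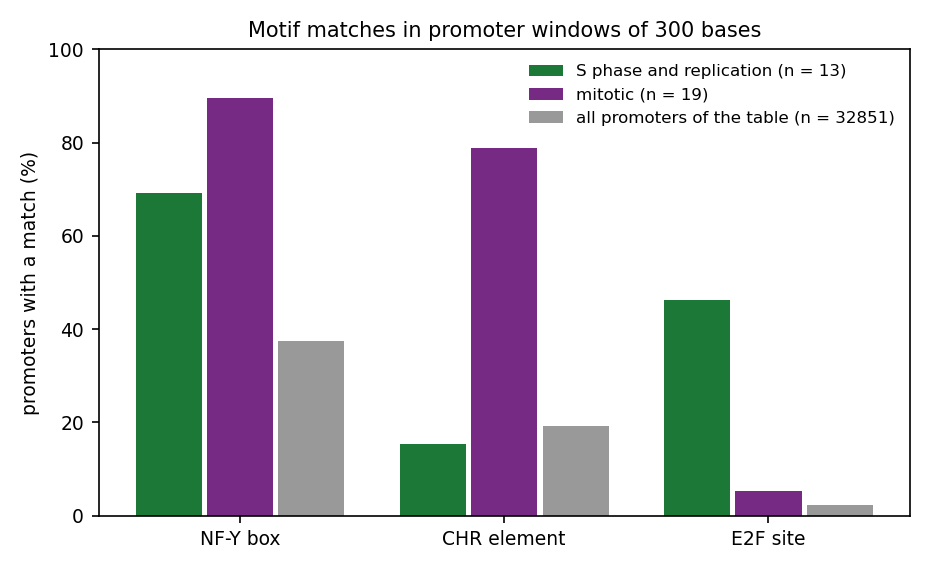
Share of promoter windows (percent, vertical axis) with a match to the NF-Y box, the CHR element or the E2F site for the 13 S phase genes, the 19 mitotic genes and all 32851 windows. The CHR bar is tallest for the mitotic genes (78.9%) and the E2F bar for the S phase genes (46.2%). With the upstream bases alone these shares were 47.4% and 30.8%.

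The comparison of Cationorm with Control addressed whether the drop went with a different level of proliferation transcripts. None of the 41 genes passed the test (quasi-likelihood test of edgeR, adjusted p between 0.550 and 0.998), and the background was 0% of 18804 genes tested. Control and Cationorm values overlapped for all 41, whereas the groups did not overlap for 14.8% of all genes tested. At an unadjusted p under 0.05 stood 1 of the 41 (Mki67), against 8.73% of all genes. DESeq2 called 0 of the 41 (smallest adjusted p 0.372, Mki67), against 0.381% of the 14426 genes to which it gave an adjusted p. All 41 genes passed the low-count filter, with 309 to 18515 counts per library.

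The point estimates were above 0 for 31 of the 41 genes, and for 51.2% of all genes tested. The median log2 fold change was 0.11 over the S phase genes, 0.09 over the mitotic genes and 0.0055 over all genes. The 95% interval of every one of the 41 stayed within a 2-fold change in either direction, from -0.94 (Ccne2) to 0.75 (Aurka) at the extremes. Such an interval was found for 72.4% of all genes tested. These medians depended on single libraries. Without Control 3 the median was -0.026 over the S phase genes and 0.010 over the mitotic genes, and 19 of the 41 estimates were above 0. The S phase median was 0.026 without Cationorm 2, and without Cationorm 1 the medians were 0.058 (S phase) and 0.020 (mitotic). The fit without Control 3 called 0.0414% of all genes and the fit without Cationorm 3 called 1.83%, with 0 of the 41 genes in either.

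**Figure D2:**
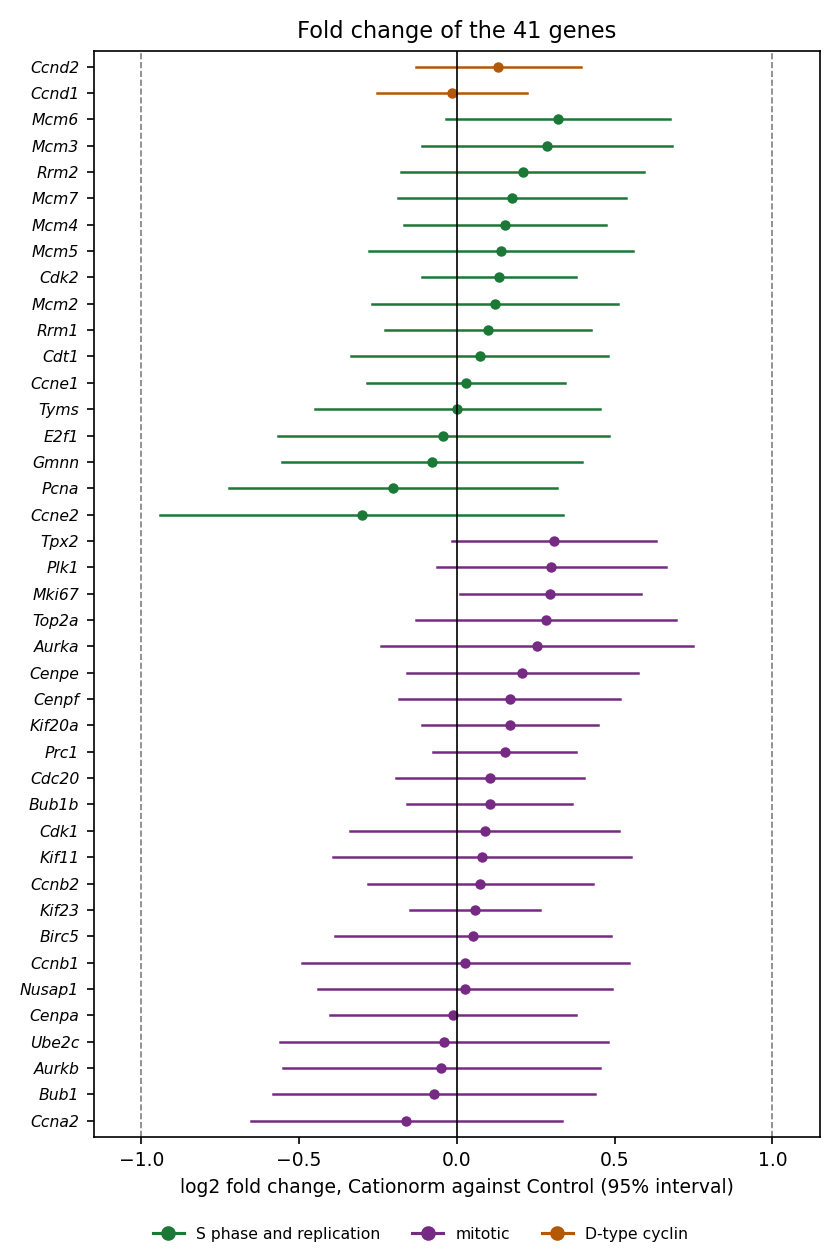
Log2 fold change of Cationorm against Control (horizontal axis; point, estimate; line, 95% interval) for the 41 genes, by class. All lines lie between the dashed marks at a 2-fold change, and 40 of 41 cross 0.

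The largest differences between libraries did not follow the groups. Control 3 was the lowest of the 6 libraries for 34 of the 41 genes (12 of 16 S phase, 21 of 23 mitotic and 1 of 2 D-type cyclins), whereas it was the lowest for 12.6% of all genes tested. Control 2 was the highest library for 18 of the 41 and Cationorm 1 for 16, against 22.9% and 21.4% of all genes. Averaged over the S phase genes, log2 CPM stood at 0.011, 0.21 and -0.33 in Control 1 to 3 and at 0.17, 0.17 and -0.22 in Cationorm 1 to 3, each taken against the mean of the 6 libraries. The same averages over the mitotic genes were -0.027, 0.20 and -0.36 in Control and 0.22, -0.077 and 0.039 in Cationorm. The Control group thus held both the lowest library and one of the 2 highest in each class. The highest Control library exceeded the lowest by a median of 1.44-fold over the S phase genes and 1.46-fold over the mitotic genes, against 1.26-fold over all genes tested. Within Cationorm the same medians were 1.35-fold (S phase) and 1.26-fold (mitotic), against 1.22-fold over all genes.

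The other cell types of the eye also differed between these libraries. The 9 melanocyte and iris markers summed to 490 to 1182 CPM in Control and 1330 to 1653 CPM in Cationorm, and among the Control libraries the sum was highest in Control 3. The 12 retina markers summed to 5157 to 7675 CPM in Control and 1991 to 6348 CPM in Cationorm. Of the 13 lens markers, 12 were in the table, with sums of 87.1 to 3384 CPM in Control and 1793 to 6722 CPM in Cationorm. The 10 skeletal muscle markers ran from 110.4 to 1019 CPM in Control and from 92.7 to 1705 CPM in Cationorm, with Tnnc2 at no more than 3 counts in any library. The 9 vascular endothelium markers ran from 76.4 to 141 CPM and from 119 to 136 CPM, and the 12 leukocyte markers from 117 to 184 CPM and from 149 to 158 CPM. The 8 conjunctiva and eyelid markers ran from 2864 to 4024 CPM and from 3140 to 3394 CPM, and the 8 keratocyte markers from 3165 to 3351 CPM and from 2816 to 4014 CPM, in Control and Cationorm respectively. Of the leukocyte markers, Cd3e, Cd3g, Trbc2 and Cd79a did not pass the low-count filter, and the sum was mostly that of Lyz2, Itgam, Cd74 and Cd68. Muc5ac of the conjunctiva and eyelid list did not pass the filter either. Most of that list's sum was Krt13, at 2141 to 2978 CPM in Control and 2346 to 2478 CPM in Cationorm. The keratocyte sum joined unlike genes, with 3 estimates above 0 and 5 below. Kera was at 186, 169 and 173 CPM in Control and at 152, 73.5 and 71.6 CPM in Cationorm. Ptgds was at 252, 248 and 557 CPM in Control and at 828, 698 and 587 CPM in Cationorm. The corneal epithelium sum was lowest in Control 3 but differed by only 1.12-fold between the highest and the lowest library. Krt14, a keratin of basal epithelial cells, read 746, 1790.3 and 673 CPM in the Control libraries, in order, and 1105, 696 and 1169 CPM in the Cationorm libraries. It was highest in Control 2 and lowest in Control 3, as was the S phase average, while the mitotic average was highest in Cationorm 1. Within Cationorm, Krt14 was lowest in Cationorm 2, whereas the S phase average was lowest in Cationorm 3. Krt5, Krt15 and Trp63 of the same marker list were lowest in Cationorm 3, at 18410, 3131 and 265 CPM. In Control 3 they read 18429, 3362 and 271 CPM. The part of these tissues and of the basal layer in the cell cycle values was not tested.

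**Figure D3:**
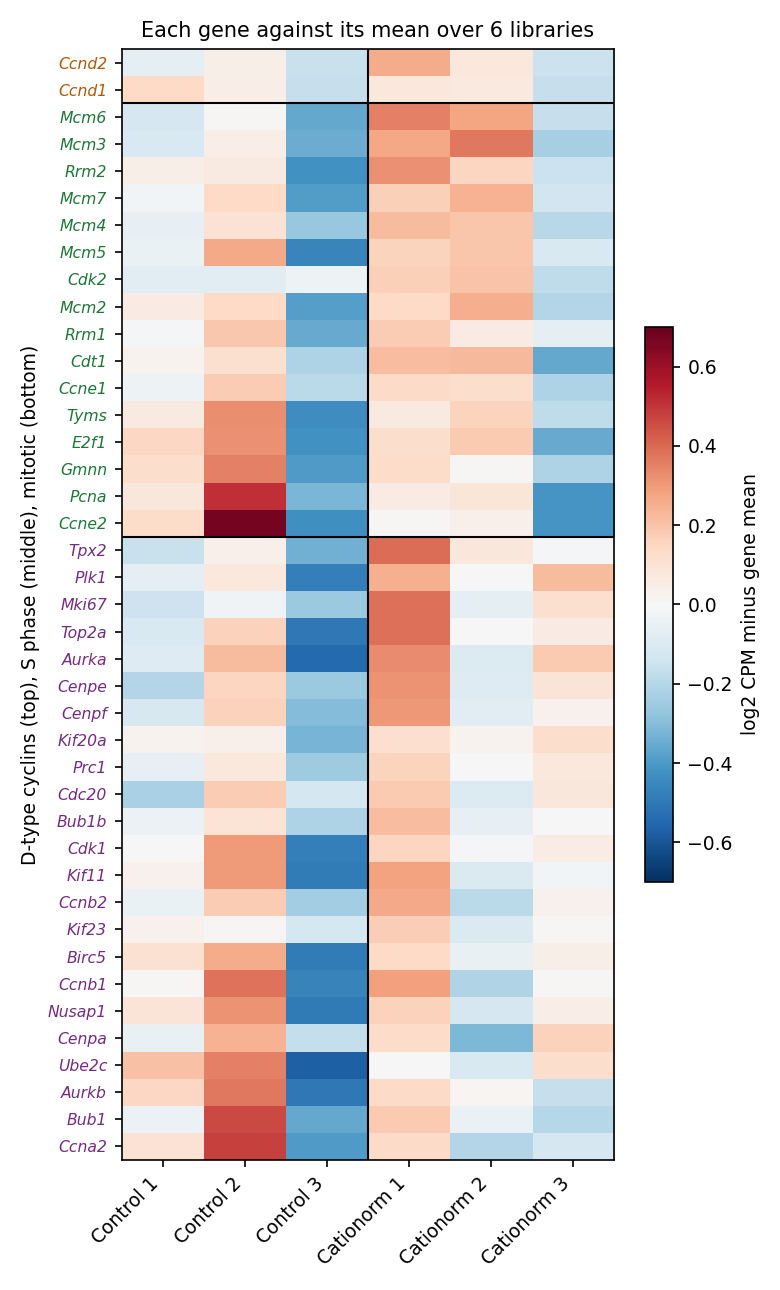
Level of each of the 41 genes (rows) in each library (columns), as log2 CPM minus the gene's mean over the 6 libraries (colour). The Control 3 column is the lowest for 34 of the 41 rows, and the Control 2 and Cationorm 1 columns hold most of the highest values.

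Of the S phase genes, 12 of 16 had estimates above 0 and 4 below. With DESeq2's size factors, upper-quartile factors, another filter or DESeq2 the split was 11 and 5, because Tyms, at 0.0021 here, lay just below 0 in those fits. The 6 subunits of the MCM helicase, which unwinds DNA at the fork, all had estimates above 0, from 0.12 (Mcm2) to 0.32 (Mcm6). For Mcm6, Control 1 to 3 read 96.8, 106 and 81.9 CPM, and Cationorm 1 to 3 read 134, 127 and 94.0 CPM. Cationorm 1 and 2 lay above every Control library for Mcm6, and Cationorm 3 lay below Control 1 and 2. Its log2 fold change was 0.32 ± 0.15 (SE; 95% interval -0.036 to 0.68; edgeR adjusted p = 0.550), the largest among the S phase genes. Mcm3 was at 67.4, 75.2 and 57.2 CPM in Control and at 87.8, 93.8 and 62.0 CPM in Cationorm. It repeated the arrangement of Mcm6, with Cationorm 3 below Control 1 and 2, and its log2 fold change was 0.29 ± 0.17 (SE).

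The other helicase subunits given in full differed less between the groups. Mcm7 was at 77.5, 86.7 and 59.8 CPM in Control and at 88.3, 92.9 and 71.5 CPM in Cationorm, with a log2 fold change of 0.17 ± 0.15 (SE). Mcm4 was at 72.6, 81.1 and 63.0 CPM and at 88.3, 86.4 and 66.2 CPM, with 0.15 ± 0.14. In both genes the third library was the lowest of its group. Mcm2 was at 89.6, 94.9 and 65.8 CPM in Control and at 94.7, 103 and 74.8 CPM in Cationorm, with 0.12 ± 0.17. Its estimate turned to -0.023 without Control 3. Mcm5 stood at 0.14 ± 0.18 and was highest in Control 2, and its lowest estimate with a library left out was -0.028.

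Rrm2, the regulated subunit of the ribonucleotide reductase that supplies deoxynucleotides, was at 69.0, 70.1 and 49.95 CPM in Control and at 83.7, 74.3 and 60.4 CPM in Cationorm. Its log2 fold change was 0.21 ± 0.16 (SE), and Cationorm 3 lay below Control 1 and 2. The partner subunit Rrm1 stood at 0.10 and Tyms, which makes thymidylate, at 0.0021. Pcna, the sliding clamp of the replicative polymerases, was at 83.1, 112 and 62.9 CPM in Control and at 81.6, 83.4 and 59.1 CPM in Cationorm. Its highest value was in Control 2 and its lowest in Cationorm 3, and its log2 fold change of -0.20 ± 0.22 (SE) was 0.012 without Control 2. Pcna-ps2, a pseudogene copy, has its own row in the table, so reads of Pcna may have been split.

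The genes that start and license S phase lay on both sides of 0. Estimates were 0.029 for cyclin E1 (Ccne1), -0.30 for cyclin E2 (Ccne2), -0.043 for the transcription factor E2f1, 0.072 for the licensing factor Cdt1 and -0.079 for geminin (Gmnn), which inhibits Cdt1. Ccne2 varied most among the Control libraries, at 15.9, 23.2 and 10.8 CPM, a range of 2.14-fold, and was at 14.7, 14.9 and 11.0 CPM in Cationorm. Cdk2, the kinase partner of cyclin E, was at 61.9, 61.7 and 63.5 CPM in Control and at 73.0, 74.7 and 57.6 CPM in Cationorm, with a log2 fold change of 0.13 ± 0.10 (SE). It was the one S phase gene with its highest Control value in Control 3. In the GRCm38 annotation the exons of Cdk2 overlap those of the pigment gene Pmel on the opposite strand, and no strand setting is stated for the counts. Pmel was at 106, 81.4 and 228 CPM in Control and at 331, 261 and 267 CPM in Cationorm, so part of the Cdk2 counts may be reads of Pmel, and that part was not tested. In all, 13 of the 41 genes have exons that overlap those of another annotated gene (Mcm7, Ccne2, Cdk2, Top2a, Ccna2, Plk1, Kif20a, Nusap1, Prc1, Cdc20, Ube2c, Ccnd1 and Ccnd2), so reads may be shared. The overlapping gene ranged from Pmel, above Cdk2 in every library, to Gm43126 over Ccnd2, at 0 counts. Tnnc2 over Ube2c was at no more than 3 counts in any library, whereas Tnnt3, another skeletal muscle marker, reached 6695 counts in Cationorm 2. Whether reads of Tnnc2 were counted elsewhere was not tested. For Top2a the overlapping gene is on the same strand and was not analysed here, and the same holds for Mir25 and Mir93 over Mcm7.

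Of the mitotic genes, 18 of 23 had estimates above 0 and 5 below (Ccna2, Bub1, Aurkb, Ube2c and Cenpa), as many as with either other scaling. Mki67 encodes Ki-67, a protein of dividing nuclei and the usual proliferation marker. It was at 86.7, 94.5 and 80.2 CPM in Control and at 125, 91.9 and 104 CPM in Cationorm. Cationorm 1 and 3 lay above every Control library for Mki67, and Cationorm 2 lay below Control 2. Its log2 fold change was 0.30 ± 0.12 (SE; 95% interval 0.0086 to 0.58; edgeR unadjusted p = 0.0450 and adjusted p = 0.550). Top2a, the topoisomerase that untangles sister chromatids, was at 92.1, 111 and 70.3 CPM in Control and at 129.6, 99.5 and 104 CPM in Cationorm, with 0.28 ± 0.17 (SE). Control 2 lay above Cationorm 2 and 3 for Top2a.

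The spindle genes with the smallest p had the same sign as Mki67. Tpx2, which nucleates spindle microtubules and activates Aurora A, was at 25.3, 28.9 and 22.4 CPM in Control and at 37.0, 29.9 and 28.0 CPM in Cationorm. Its log2 fold change was 0.31 ± 0.14 (SE; 95% interval -0.017 to 0.63), the largest among the mitotic genes, and only Cationorm 3 lay within the Control range. Plk1, a kinase of mitotic entry and spindle assembly, was at 18.3, 20.1 and 13.7 CPM in Control and at 22.7, 19.1 and 22.3 CPM in Cationorm, with 0.30 ± 0.15. For Plk1 it was Cationorm 2 that lay within the Control range. Prc1, which bundles the midzone microtubules of anaphase, was at 33.9, 37.1 and 29.8 CPM and at 39.4, 35.5 and 37.2 CPM, with 0.15 ± 0.10. Kif20a, a kinesin of cytokinesis, was at 18.8, 19.0 and 14.8 CPM and at 20.1, 18.8 and 20.1 CPM, with 0.17 ± 0.12. Both genes had their lowest value in Control 3 and otherwise close levels. Adjusted p over all genes (edgeR) was 0.550 for Tpx2 and Plk1, 0.593 for Prc1 and 0.616 for Kif20a.

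**Figure D4:**
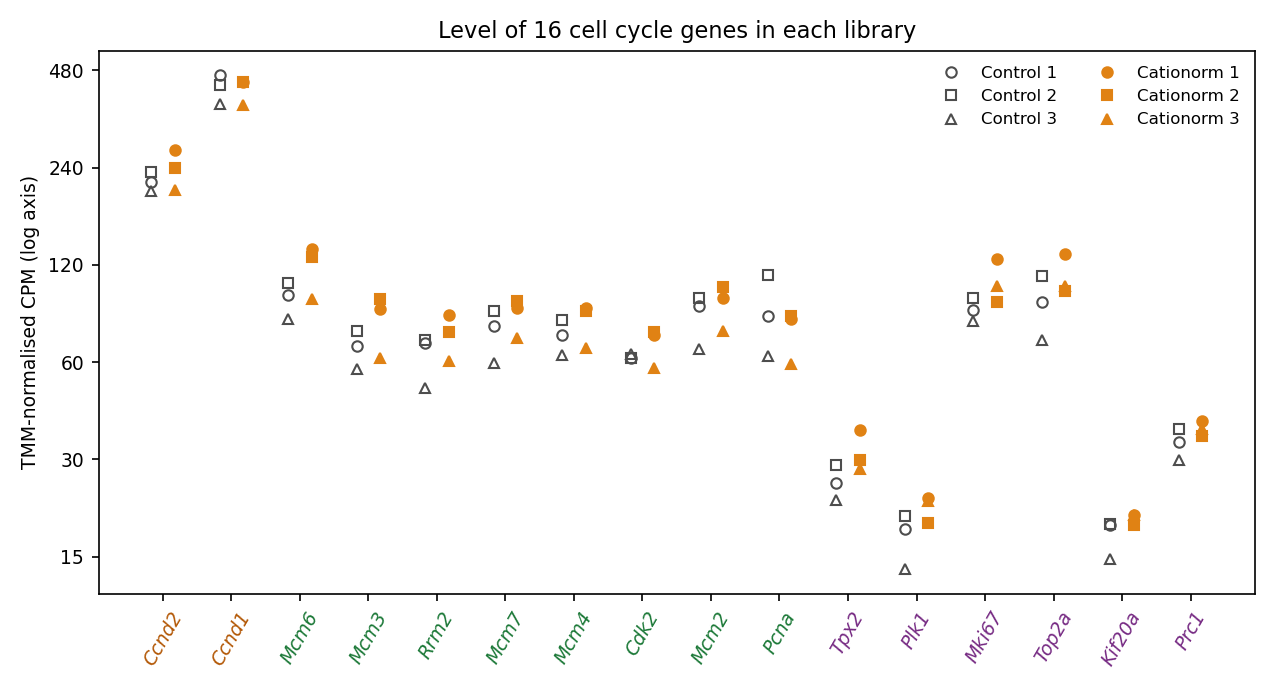
TMM-normalised CPM (log axis) of the 16 genes given in full, with 3 Control libraries (open grey) and 3 Cationorm libraries (filled orange). The groups overlap for every gene, and the Control 3 triangle is the lowest open symbol for all but Cdk2.

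The remaining mitotic genes had estimates from -0.16 to 0.25. The engine of mitotic entry stood at 0.027 for cyclin B1 (Ccnb1), 0.075 for cyclin B2 (Ccnb2) and 0.089 for Cdk1. Cyclin A2 (Ccna2) had the lowest estimate of the class, -0.16, with 49.9, 64.8 and 35.3 CPM in Control and 51.1, 40.4 and 42.8 CPM in Cationorm. The Cationorm values of Ccna2 all lay between Control 3 and Control 2. Estimates were -0.071 for the checkpoint kinase Bub1 and 0.10 for its relative Bub1b, and 0.25 for Aurora A (Aurka). The chromosomal passenger genes Aurkb and Birc5, whose protein is survivin, stood at -0.049 and 0.052. Centromere genes were at 0.21 (Cenpe), 0.17 (Cenpf) and -0.012 (Cenpa), and the motor genes Kif11 and Kif23 at 0.081 and 0.057. The spindle protein gene Nusap1 stood at 0.025, and the genes of anaphase-promoting complex activity at 0.10 (Cdc20) and -0.041 (Ube2c). Ccnb1 and Ccnb2 each have a pseudogene with its own row in the table.

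The D-type cyclins were the most abundant of the 41 genes in CPM. Ccnd1 was at 463, 434 and 377 CPM in Control and at 442, 442 and 376 CPM in Cationorm, with a log2 fold change of -0.015 ± 0.10 (SE; 95% interval -0.25 to 0.22). The third library was the lowest in both groups for Ccnd1, and 1.23-fold separated the Control libraries. Ccnd2 was at 217, 233 and 204 CPM in Control and at 273, 239 and 205 CPM in Cationorm, with 0.13 ± 0.11. Scaled to exon length from the GRCm38 annotation, the mean level over the 6 libraries was 89.7 CPM per kb for Ccnd1, 33.5 for Pcna, 24.5 for Rrm2 and 24.3 for Ccnd2. The lowest were Cenpf and Cenpe, at 1.54 and 1.76 CPM per kb.

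S phase and mitotic transcripts did not keep one ratio in every library. The S phase average minus the mitotic average, each against its mean over the 6 libraries, was 0.038, 0.00090 and 0.022 on the log2 scale in Control 1 to 3. It was -0.049, 0.25 and -0.26 in Cationorm 1 to 3, so Cationorm 2 was higher in S phase genes and Cationorm 3 in mitotic genes. The group means were 0.020 in Control and -0.020 in Cationorm, and the wider spread within Cationorm was not tested. Cationorm 3 was the lowest library for 4 S phase genes (Pcna, Cdt1, Ccne1 and Cdk2) and for 0 mitotic genes.

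Genes of the same pathway outside the 41 were described from 3 further lists. Of 44 other S phase and replication genes, 32 had estimates above 0 and 12 below, with a median of 0.07. None passed the test, 0 stood at an unadjusted p under 0.05, and Control 3 was the lowest library for 36. The smallest p above 0 belonged to Clspn, a fork checkpoint mediator (0.31 ± 0.16 SE), the repressor E2f7 (0.34 ± 0.19) and the polymerase subunit Pole (0.27 ± 0.16). Below 0 they belonged to the histone chaperone Nasp (-0.081 ± 0.13), the checkpoint kinase Chek1 (-0.096 ± 0.19) and the deubiquitinase Usp1 (-0.053 ± 0.11). Without Control 3 the median of this list was -0.058, with 12 of 44 estimates above 0.

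Of 58 other mitotic genes, 40 had estimates above 0 and 18 below, with a median of 0.10, and Control 3 was the lowest library for 45. None passed over all genes, and 3 of 58 stood at an unadjusted p under 0.05, a smaller share than the 8.73% of all genes tested. These were the condensin subunit Ncapd2, the spindle checkpoint kinase Ttk and the kinase Melk, and they were also the 3 whose groups did not overlap, against 14.8% of all genes tested. Ncapd2 was at 66.7, 69.1 and 57.5 CPM in Control and at 81.7, 77.9 and 70.1 CPM in Cationorm, with a log2 fold change of 0.25 ± 0.09 (SE; edgeR adjusted p = 0.550). Ttk was at 7.55, 9.03 and 6.52 CPM and at 11.0, 10.5 and 9.33 CPM, with 0.41 ± 0.16. Melk was at 36.9, 38.5 and 39.5 CPM and at 47.6, 40.98 and 42.5 CPM, with 0.19 ± 0.08. Below 0, the smallest p belonged to the kinetochore genes Spc25 (-0.54 ± 0.25 SE) and Zwint (-0.22 ± 0.12) and to Hmgb2, a chromatin protein (-0.18 ± 0.15). Without Control 3 the median of this list was -0.042.

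The brakes of the cycle and the G1 regulators had 8 of 20 estimates above 0 and a median of -0.034, and 0 passed the test or stood at an unadjusted p under 0.05. Cdkn1b, which encodes the inhibitor p27, was at 149, 188 and 145 CPM in Control and at 132, 150.2 and 134 CPM in Cationorm, with a log2 fold change of -0.21 ± 0.11 (SE). Cationorm 1 and 3 lay below every Control library for Cdkn1b. Cdkn2d, an inhibitor of Cdk4 and Cdk6, was at 17.4, 16.2 and 13.9 CPM and at 13.5, 13.7 and 13.9 CPM, with -0.21 ± 0.11. The groups did not overlap for 2 of the 20, Cdkn2d, by a margin under the rounding of these values, and E2f5, a factor of the E2F family, against 14.8% of all genes tested. E2f5, named after its values were seen, read 7.404, 6.75 and 8.23 CPM in Control and 6.51, 6.58 and 6.33 CPM in Cationorm. Cdkn2b, of the same inhibitor family, stood at -0.17 ± 0.10. Above 0, the smallest p belonged to the retinoblastoma gene Rb1 (0.067 ± 0.08 SE), Cdk6 (0.081 ± 0.11) and Ccnd3 (0.047 ± 0.07). Control 3 was the lowest library for 5 of the 20, against 34 of the 41 genes of division and replication. Without Control 2 the median of the brakes was 0.0045, with 10 estimates on each side.

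**Figure D5:**
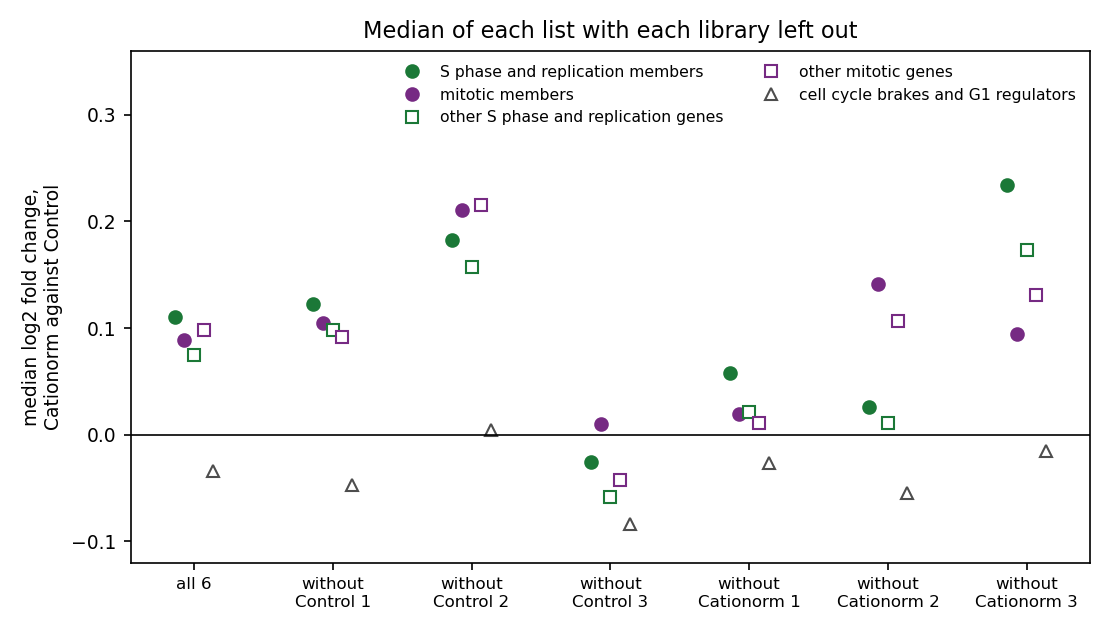
Median log2 fold change of Cationorm against Control (vertical axis) for 5 gene lists with all 6 libraries and with each left out in turn. Without Control 3 the S phase median falls to -0.026 and the mitotic median to 0.010, and without Control 2 they are 0.18 and 0.21.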

How the data were processed

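Each of 6 libraries has 1 column of unscaled gene counts in the authors' table, per the file headers. DESeq2 and the builds GRCm39 and mm39 appear in the submitters' processing notes without a role. The strand used for counting, the aligner and the annotation were not given in the sources used here. Columns were matched to samples by library name and grouped by title. Counts were scaled with TMM factors, filtered with filterByExpr (18804 of 35673 genes kept) and tested over all kept genes in edgeR 4.0.16 (quasi-likelihood F test, R 4.3.3), without a covariate, with Benjamini-Hochberg adjustment at 0.05. Levels are TMM-scaled CPM. Class averages by library used log2(CPM + 0.5). Standard errors came from the fitted log2 fold change and its F statistic. The members and lists were chosen with earlier results of these data known.

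Values in every library are given for Mki67, Top2a, Pcna, Mcm2, Ccnd1 and Ccnd2 and for the 6 genes of each class with the smallest p; up to 3 genes in each direction are named from the other lists. Ccne2 and Ccna2 were also given in full after their values were seen. Exon lengths came from GENCODE on GRCm38 and promoters from RefSeq. In low-count genes 61.7% to 64.9% of the nonzero counts of a library were even, so a fragment may often have added 2 counts. A count of 0 allows up to 0.0750 to 0.0952 CPM, taking 3 counts as the limit, for counting error only. That limit takes each count as 1 fragment and would be higher where a fragment added 2 counts. The fit was tested on simulated data first, with 66 changed genes at each of 3 sizes. At an edgeR adjusted p under 0.05 it recovered 12.1% of the 1.5-fold, 47% of the 2-fold and 81.8% of the 4-fold changes. It also called 8 unchanged genes. Alternatives were other scaling factors, other filters, DESeq2 1.42.0, limma-voom (limma 3.58.1), robust dispersion, a replicate block, each library left out and other tissues' markers left out.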

Additional observations from a re-analysis of the deposited data

How the results depend on the processing

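None of the 41 genes passed the threshold under any of the 16 alternatives to the fit. Over all genes tested, edgeR called 0 with all 6 libraries and DESeq2 called 55, and with each library left out in turn edgeR called between 0 and 350 (8 without Control 3, 1 without Control 2, 350 without Cationorm 3). The medians of both classes stayed above 0 in 15 of those 16 fits for the S phase genes, the exception being the fit without Control 3 (-0.026), and in all 16 for the mitotic genes. Leaving out 1 library moved the S phase median between -0.026 and 0.23 and the mitotic median between 0.010 and 0.21. Without Control 2 the medians were 0.18 (S phase) and 0.21 (mitotic), the S phase median came to 0.23 without Cationorm 3, and the mitotic one was 0.14 without Cationorm 2. Leaving other tissues' marker genes out of the fit removes their rows only, not those tissues' RNA, so it does not bear on their part. The number of genes with estimates above 0 ran from 19 of 41 without Control 3 to 39 of 41 without Control 2. Ccnd1 turned to 0.052 without Control 1 and 0.059 without Cationorm 3. With the replicate number as a block, edgeR called 0 genes, 0 of them among the 41, and the medians were 0.12 (S phase) and 0.11 (mitotic). Deviations from the group means correlated at -0.20, -0.34 and -0.21 between libraries of the same number. Between libraries of unlike number they ran from -0.19 (Control 3 with Cationorm 1) to 0.42 (Control 3 with Cationorm 2). With 3 libraries per group, these values cannot show whether libraries of the same number were handled together. With the upstream bases alone, the CHR match was found for 47.4% of the mitotic promoters. All 41 genes had at least 309 counts in each library.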
